A study of Oryza sativa with 16 samples.

Results

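Open chromatin of rice seedlings after 6 h of salt stress was compared with that of unstressed seedlings, using the lists of FAIRE-seq peaks of these conditions. The comparison comprised 186955 peaks, 87437 of the salt 6 h list and 99518 of the control list, out of 695463 peaks in the 7 lists of the series. Peaks of the lists were matched where they shared at least 1 bp. A control peak without such a partner is called lost, and a salt 6 h peak without one is called gained. A 1:1 pair is a control peak and a salt 6 h peak that overlap only each other, and it is called narrowed or widened when its width differed by at least 1.5 times.

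All seedlings were 14-day-old Oryza sativa of the Japonica cultivar Nipponbare. Control seedlings grew at 28 °C, and the salt 6 h seedlings received 250 mM NaCl for 6 h. Each condition had 2 biological replicates, but the peaks were deposited as 1 list per condition, so no value below has a replicate error and no test between the conditions was possible. Whole seedlings were used, so a smaller number of cells with an open site and a weaker opening in every cell cannot be told apart.

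In FAIRE-seq, chromatin is fixed with formaldehyde, sheared and extracted with phenol, and the DNA that is not bound to nucleosomes is recovered and sequenced. Peaks of such reads mark open chromatin, as found at active promoters and enhancers, where transcription factors bind. Sodium chloride imposes osmotic stress within minutes and ionic stress as sodium accumulates, and rice seedlings are known to respond with broad changes in transcription. No gene or sequence is given here, because a genome of the build of the peak coordinates, IRGSP 1.0, was not used.

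The lists differed in size and in signal. Peaks covered 82.8 Mb in the control and 68.6 Mb after salt 6 h, with a median width of 649 and 614 bp. Fold enrichment, which MACS2 computes as read density over the local background, had a median of 2.38 in the control and 3.00 after salt 6 h, and the median −log10 q was 7.002 and 13.6. At a given fold enrichment the significance of a peak grows with the number of reads. Control and salt 6 h peaks of fold enrichment 2.0 to 2.1 had a median −log10 p of 5.39 and 5.41, and those of 3.0 to 3.1 had 12.7 and 14.8. Read counts per library were not used here, and the part of depth in the results below was not tested.

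More peaks were lost than gained after salt 6 h. Of the control peaks, 18030 had no salt 6 h partner, which is 18.1% (95% Wilson interval 17.9 to 18.4%, for counting error only). Of the salt 6 h peaks, 4136 had no control partner, which is 4.73% (4.59 to 4.87%). The excess was smaller between lists of equal length. When each list was cut to its 87437 strongest peaks by fold enrichment, 13106 control peaks (14.99%) were lost and 10951 salt 6 h peaks (12.5%) were gained.

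Few peaks lay close to the limit of 1 bp. Of the matched control peaks, 19 were covered over 50 bp or less, with a median fold enrichment of 1.70 and a median width of 465 bp, and 5 lost peaks had a salt 6 h peak within 50 bp, with 1.61 and 483 bp. Of the salt 6 h peaks, 20 were matched over 50 bp or less and 5 gained ones lay within 50 bp of a control peak. A stricter rule raised both counts. With at least 50% of a peak to be covered, 24504 control peaks were lost and 5539 salt 6 h peaks gained.

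Lost peaks were narrow and weak. Their median width was 286 bp (quartiles 228 to 466 bp), against 735 bp for control peaks in 1:1 pairs. Their median fold enrichment was 2.03 against 2.504, and their median rank was percentile 25.01 of the control list, against percentile 58.1. Of the 17770 control peaks up to 300 bp wide, 54.5% were lost, and these narrow peaks made up 53.7% of all lost peaks. The share lost declined from 63.3% at widths up to 250 bp to 18.3% above 400 and up to 500 bp, 7.20% above 700 and up to 1000 bp and 0.135% above 2000 bp, which is 8 of 5937 peaks. By fold enrichment, it declined from 41.6% in the lowest decile of the control list to 0.814% in the highest. A wide peak meets some peak of the other list more readily, since 1 bp is enough. The part of this in the decline with width, here and for gained peaks below, was not tested.

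Width and fold enrichment each went with the share lost when the other was held in a narrow range. Among control peaks above 400 and up to 700 bp wide, 44.8% were lost in the lowest decile of fold enrichment, 13.2% in the decile just below the median and 0.534% in the highest. Above 1000 and up to 1500 bp the same shares were 12.0%, 2.44% and 0 of 2161 peaks, which allows up to 0.177%. At widths up to 250 bp they were 64.3% and 64.6% in the lowest decile and in that just below the median, whose intervals overlapped, and 2 of 10 peaks in the highest (5.67 to 51.0%).

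Gained peaks were narrow and weak as well. They had a median width of 261 bp (213 to 372 bp), a median fold enrichment of 2.07 and a median rank at percentile 11.9 of the salt 6 h list. The share gained was 21.4% of the salt 6 h peaks up to 250 bp wide and 0 of the 4038 peaks above 2000 bp. By fold enrichment it went from 21.01% in the lowest decile to 0.0686% between percentiles 70 and 80, and none of the 17487 peaks above that was gained. The strongest gained peak was number 21528 of the salt 6 h list, whereas the strongest lost peak was number 2017 of the control list. Partners of salt 6 h peaks were sought in the longer list and those of control peaks in the shorter. The part of list length in these ranks was not tested.

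**Figure D1:**
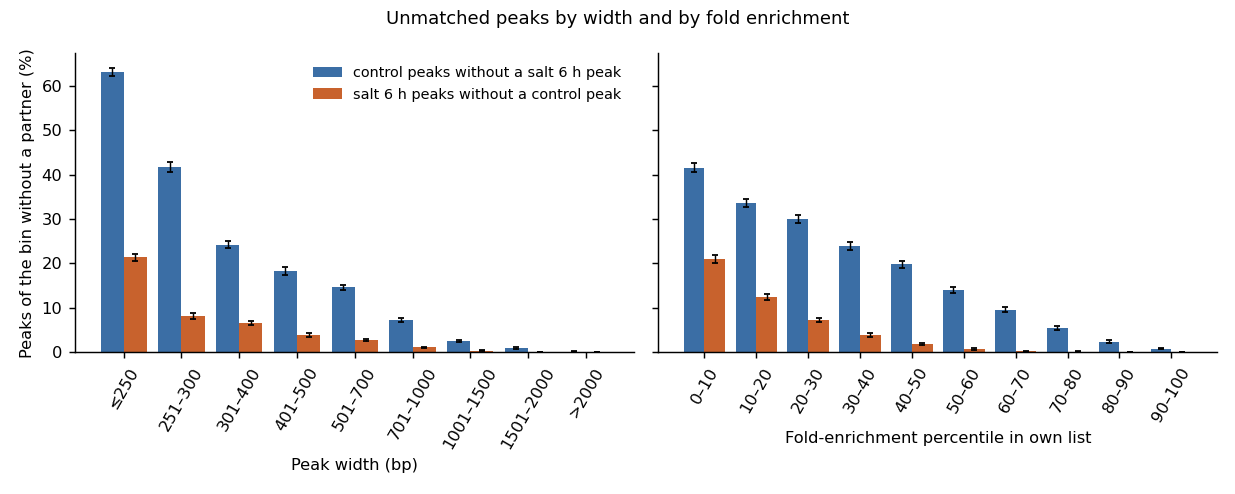
Share of peaks without a partner (percent, with 95% Wilson intervals) by peak width in bp (left) and by fold-enrichment percentile within the peak's own list (right), for control peaks (blue) and salt 6 h peaks (orange). Both shares decline with width and with fold enrichment, from 63.3% to 0.135% of control peaks and from 21.4% to 0 of salt 6 h peaks across the widths.

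The lost peaks of highest fold enrichment lay well inside the upper part of the control list. The first was chr8:16032387-16032687, 301 bp wide with a fold enrichment of 4.09 and a −log10 q of 19.0, and its nearest salt 6 h peak was 10972 bp away. The next were chr8:14679875-14680266 at 4.08, chr5:16190062-16190420 at 4.07, chr8:26762950-26763297 at 4.03 and chr11:9472956-9473313 at 3.97. Each of these 5 regions held a peak in every other list of the series, so the salt 6 h list alone lacked them. In the salt 2 h list, from seedlings that had received the same 250 mM NaCl for 2 h, the 5 peaks had a fold enrichment of 3.29, 2.78, 3.196, 3.16 and 3.31 in the same order. The regions were picked for a high control value. The fold enrichment of cold 12 h, cold 24 h, heat 30 min and heat 3 h was below the control at all 5 as well. The lower 2 h values are thus no separate result. By rank within its list, heat 30 min was above the control at the chr11 region, at percentile 99.0 against 97.3.

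The gained peaks of highest fold enrichment were 235 to 271 bp wide. They were chr3:25371788-25372027 with a fold enrichment of 3.85, chr7:12766373-12766618 with 3.81, chr10:12873130-12873400 with 3.72, chr12:27337333-27337569 with 3.68 and chr7:53053-53287 with 3.67. All 5 held a peak in the salt 2 h list too, at a lower fold enrichment of 2.21, 2.42, 2.86, 2.53 and 2.30. These regions were not particular to salt, since each also held a peak in a cold or heat list. Cold 24 h had 2.29, 2.37, 2.20 and 2.31 at the regions after chr3. At the chr3 region heat 3 h had 2.36. The chr10 region also had 3.11 in heat 3 h, 1.91 in heat 30 min and 1.86 in cold 12 h. The chr12 region also had 1.87 in heat 30 min. The regions were picked for a high value in their own list, here salt 6 h and above the control, so a lower value in other lists is no separate result.

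Lost peaks followed each other slightly more often than the 18.1% lost among all control peaks. Of the control peaks that followed a lost peak on the chromosome, 20.05% were lost too, against 17.7% of those that followed a kept one. The lost peaks formed 14416 runs of neighbours, of which 11563 held 1 peak and 128 held 4 or more. At such a share lost most runs hold 1 peak, so their number is no separate result. The longest runs had 7 peaks, and there were 4 of them. Those at chr5:16832549-16844366, chr9:3808032-3818960, chr10:16711009-16734546 and chr11:8658157-8673564 spanned 11818, 10929, 23538 and 15408 bp, and the highest fold enrichment of a peak in them was 2.85. Of all lost peaks, 8.83% had a salt 6 h peak within 500 bp and 3.77% had none within 5000 bp, with a median distance of 1230 bp. For gained peaks and their nearest control peak these values were 13.6%, 9.70% and 1112 bp.

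Most of the bases that were covered in 1 list only lay in peaks that had a partner. Peaks of both lists covered 63.5 Mb in common. Bases covered in the control only came to 19.3 Mb, of which 6.89 Mb (35.7%) lay in lost peaks, 10.03 Mb (51.9%) in 1:1 pairs and 2.22 Mb (11.5%) in control peaks that overlapped several salt 6 h peaks. Bases covered after salt 6 h only came to 5.12 Mb, with 1.38 Mb (26.8%) in gained peaks and 2.85 Mb (55.6%) in 1:1 pairs. The covered length was thus lower by 14.2 Mb after salt 6 h, a difference of -17.2% of the control length. With equal numbers of peaks the difference was -8.61%.

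**Figure D2:**
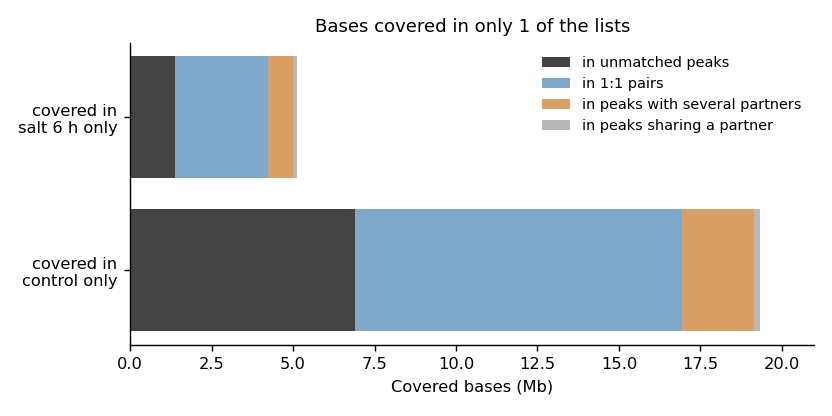
Bases in Mb that were covered by peaks of only 1 list, divided by how the peak that holds them was matched. Control-only bases came to 19.3 Mb, of which 10.03 Mb lay in 1:1 pairs, and salt 6 h-only bases to 5.12 Mb, of which 2.85 Mb lay in 1:1 pairs.

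The 75857 1:1 pairs were narrower after salt 6 h more often than wider. The salt 6 h peak was the narrower in 51421 pairs (67.8%), the wider in 24015 (31.7%) and of equal width in 421. The median difference was -34 bp (quartiles -126 to 13 bp), and the median width was 735 bp in the control and 636 bp after salt 6 h. The typical pair therefore differed little. Taken separately over all pairs, the median retraction was 11 bp at the lower-coordinate end and 11 bp at the higher-coordinate end.

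Changes of at least 1.5 times were mainly in the narrowing direction. Of the pairs, 10818 were narrowed, which is 14.3% (14.0 to 14.5%), and 2254 were widened, which is 2.97% (2.85 to 3.09%). No peak of either list was narrower than 200 bp, so a control peak under 300 bp could not be narrowed by this measure. Of the 68307 pairs with a control width of 300 bp or more, 15.8% were narrowed. The share was highest for control peaks above 1000 and up to 1500 bp, with 20.1%, and was 9.62% above 2000 bp. Widened pairs were mostly those with a narrow control peak, with 17.1% at widths up to 250 bp and 0.556% above 1000 and up to 1500 bp.

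A narrowed peak usually receded at 1 end. Narrowed pairs had a median width of 873 bp in the control and 369 bp after salt 6 h. In 8537 of them (78.9%) at least 80% of the difference lay at 1 end, and in 1547 (14.3%) both ends receded by 100 bp or more. The larger difference was at the lower-coordinate end in 5467 pairs and at the higher-coordinate end in 5344. Widened pairs had a median width of 333.5 bp in the control and 757 bp after salt 6 h, and in 1744 of them (77.4%) at least 80% of the difference lay at 1 end.

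The pairs that lost the most width went from a very wide control peak to a short remnant. The control peak chr10:12395321-12398930 had 3610 bp and its salt 6 h partner 526 bp, at a fold enrichment of 2.12 and 2.52. For chr6:8056733-8059742 the widths were 3010 and 299 bp, and the fold enrichment was 2.53 and 2.26. Within its own list the first kept its rank, at percentile 31.9 and 30.99, and the second stood at percentile 59.9 in the control and 19.7 after salt 6 h. The third, chr12:14904011-14907239, differed from these: its 671 bp remnant, from 3229 bp, had a fold enrichment of 5.63 against 2.76 in the control. Each value is for a whole peak, so the values of a pair stand for unlike widths. The part of width in these differences was not tested. The salt 2 h list held 2 peaks in each of these 3 control peaks. In the same order, cold 12 h held 3, 1 and 2, and cold 24 h held 2, 1 and 1. Heat 30 min held 1, 1 and 2, and heat 3 h held 1, 2 and 2. The heat 3 h peak in the first was 311 bp wide, so such changes were not particular to salt.

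The pairs that gained the most width showed no higher enrichment at the wider peak in 2 of 3 cases. At chr7:24081720-24082097 the width was 378 bp in the control and 2759 bp after salt 6 h, with a fold enrichment of 2.53 and 2.25. At chr5:28170827-28171852 it was 1026 and 2784 bp, with 2.59 and 2.38. At chr3:16345796-16346822 it was 1027 and 2905 bp, with 2.01 and 2.24. Here too the values of a pair stand for unlike widths, and the part of width in them was not tested. The salt 2 h peak had 2755 bp at the first of these regions, close to that of salt 6 h, and 1329 and 1052 bp at the others. Widening was not particular to salt. Heat 3 h had 1415, 3197 and 1558 bp in the same order, and cold 24 h 1362, 2296 and 1122 bp. Heat 30 min had 287, 2444 and 1028 bp, and cold 12 h 256, 1052 and 1056 bp.

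Wide control peaks were also broken up. Of the control peaks, 3072 overlapped more than 1 salt 6 h peak, which is 3.09%, and their median width was 1976 bp. Most of them, 2972, had 2 salt 6 h partners, 97 had 3, 2 had 4 and 1 had 5. Within such a peak a median of 620 bp, or 34.6% of its width, was not covered after salt 6 h. In the other direction, 1318 salt 6 h peaks overlapped more than 1 control peak, and 2679 control peaks were joined with another in this way.

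The control peaks with the most partners were wide and had a low fold enrichment. The peak chr11:6193797-6198330 of 4534 bp, with a fold enrichment of 1.91, was met by 5 salt 6 h peaks of 204 to 871 bp, whose fold enrichment was 1.46 to 2.95. The peak chr5:11874248-11878414 of 4167 bp, with 1.98, was met by 4 of 263 to 1048 bp. The peak chr7:2502229-2508047 of 5819 bp, with 1.82, was met by 4 of 200 to 1148 bp. Each control peak was met by pieces both above and below its own fold enrichment, the lowest being 1.46, 1.65 and 1.53. Each value is for a whole peak, so a wide peak and its pieces were measured over unlike widths. The part of width in this was not tested.

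Cover was also set against the distance from the centre of the control peak. The centre of a control peak in a 1:1 pair lay inside the salt 6 h peak in 94.0% of pairs. At 300 bp to the lower-coordinate side, 61.2% of these positions were inside a control peak and 54.0% inside a salt 6 h peak. In control peaks with several partners an uncovered stretch between the partners is fixed by how these peaks were chosen, and the values describe its place only. Their centre was inside a salt 6 h peak in 40.6%, whereas the positions 500 bp to the lower and higher side were so in 72.4% and 71.3%.

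**Figure D3:**
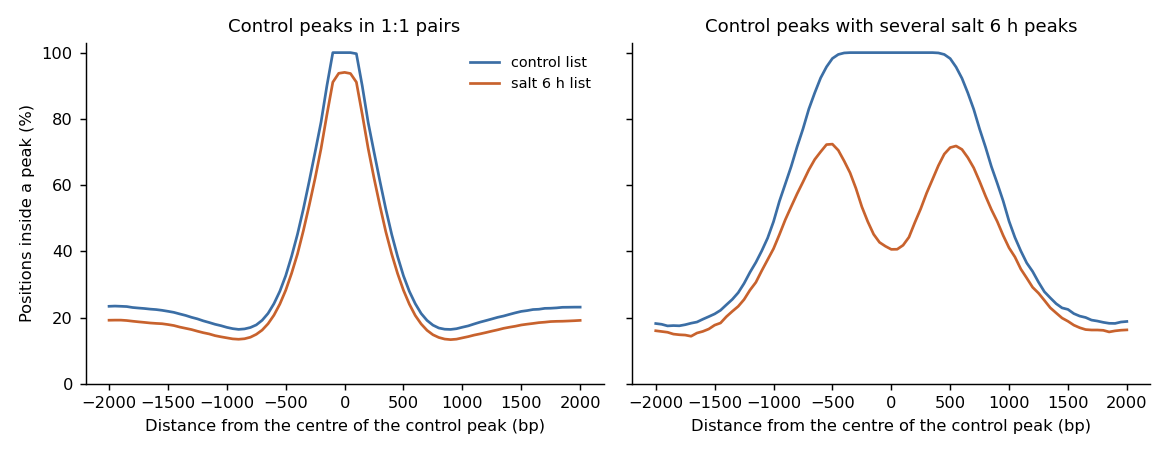
Share of positions inside a peak (percent) by distance in bp from the centre of the control peak, for control peaks in 1:1 pairs (left) and control peaks that overlap several salt 6 h peaks (right), in the control list (blue) and the salt 6 h list (orange). The salt 6 h curve runs just inside the control curve for pairs, with 94.0% at the centre, and dips to 40.6% at the centre of the divided peaks.

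The peaks that were kept had a higher fold enrichment after salt 6 h. Each value is relative to the background of its own list, so the ratios below compare scaled values and not amounts of open chromatin. In 67387 of the pairs, or 88.8%, the salt 6 h peak had the higher fold enrichment. The median of pairs was 2.504 in the control and 3.097 after salt 6 h, and the median ratio was 1.24 (quartiles 1.11 to 1.39). The median ratio had an SD of 0.00818 over the 12 chromosomes, with a range of 1.232 to 1.259. The ratio was 1.26 in the 25586 pairs whose widths were within 5% of each other, 1.254 in narrowed pairs and 1.15 in widened pairs. It grew with the strength of the control peak, from 1.18 in the lowest decile to 1.30 in the highest.

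Salt 2 h and heat 3 h, the latter at 42 °C, were set beside these values. They share the control list with salt 6 h, so the 3 comparisons are not independent. Salt 2 h had a median ratio of 1.10 in 86455 pairs, of which 76.3% had the higher fold enrichment after stress, 4.86% were narrowed and 3.49% were widened. Heat 3 h had a ratio of 1.053 in 75288 pairs, of which 59.1% had the higher fold enrichment, 14.2% were narrowed and 5.43% were widened. The narrowed shares of salt 6 h and heat 3 h thus lay within counting error of each other, while the fold enrichment of their pairs differed. At fold enrichment 2.0 to 2.1, the median −log10 p was 6.72 for salt 2 h and 5.13 for heat 3 h, and at 3.0 to 3.1 it was 17.8 and 17.2. Heat 3 h was thus below the control and salt 6 h in the lower range and above both in the higher, and the bearing of depth on these ratios was not tested.

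**Figure D4:**
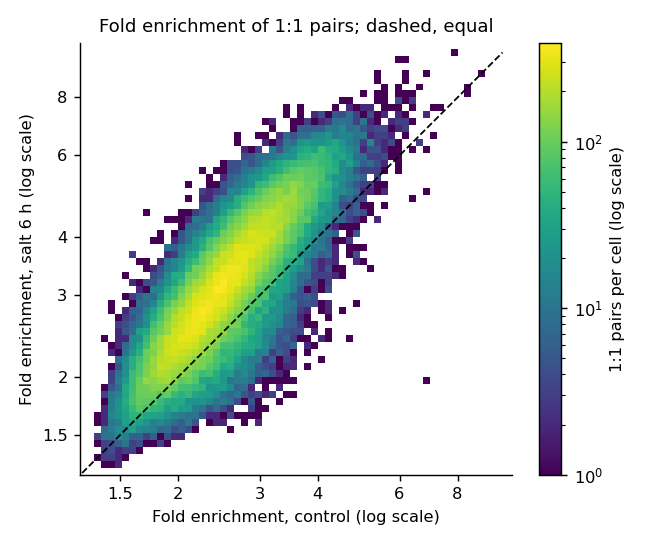
Fold enrichment of the 75857 1:1 pairs in the control (horizontal, log scale) and after salt 6 h (vertical, log scale), coloured by the number of pairs per cell, with the line of equal values dashed. Of the pairs, 88.8% lie above the line, and a single peak lies far below it, at 6.94 in the control and 1.97 after salt 6 h.

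Some pairs went against this general gain. The following regions were chosen after their values had been seen, as the pairs whose rank in their list differed the most. The peak chr12:20542322-20543514 was among the strongest of the control list, with a fold enrichment of 6.94, and had 1.97 after salt 6 h, at percentile 8.48 of that list. Its fold enrichment was 7.23 after cold 12 h, 5.73 after cold 24 h, 7.60 after heat 30 min, 7.84 after heat 3 h and 4.09 after salt 2 h. The salt lists alone were below 5.73, with the lowest value at 6 h, and the region's width was 1193 bp in the control, 1016 bp at 2 h and 791 bp at 6 h.

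Smaller differences of this kind stood at 2 further regions. At chr5:24055825-24056343 the fold enrichment was 3.57 in the control, 3.26 after salt 2 h and 1.82 after salt 6 h. At chr1:2704217-2704651 it was 3.37, 2.18 and 1.84. Both salt 6 h values lay below those of the control and of salt 2 h. At the second region cold 12 h had the lowest fold enrichment of all lists, 1.62. By rank, on which the region was picked, cold 12 h stood at percentile 16.4 of its list and salt 6 h at percentile 4.68.

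The largest differences in the other direction were picked on their control and salt 6 h values. A value of another list between these is thus no separate result. At chr5:27949537-27950020 the fold enrichment was 1.70 in the control, 2.70 after salt 2 h and 4.53 after salt 6 h, which is a ratio of 2.67 and the highest of all pairs. At chr6:20431227-20431543 it was 1.61, 2.56 and 3.72, and at chr4:9273795-9274135 it was 1.60, 2.77 and 3.68. These regions were not specific to salt, since heat 3 h gave 3.01, 3.39 and 2.74 at the same 3 peaks. Cold 24 h gave 2.17, 2.38 and 2.46 there, and heat 30 min 1.76, 2.07 and 2.29, also between control and salt 6 h. Cold 12 h gave 1.65, 1.83 and 2.08. The first of these was below the control in fold enrichment but not in rank, at percentile 20.03 of its list against 5.60.

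Lost and gained peaks were spread over all 12 chromosomes. The share lost was lowest on chromosome 4, with 16.7% (15.9 to 17.4%), and highest on chromosome 11, with 19.7% (18.8 to 20.6%). The share gained was lowest on chromosome 3, with 3.78% (3.42 to 4.18%), and highest on chromosome 12, with 5.67% (5.09 to 6.31%). Covered length was lower after salt 6 h on every chromosome, by -15.8% on chromosome 4 to -18.3% on chromosome 11. Narrowed pairs made up 13.2% on chromosome 10 to 15.3% on chromosome 11, and widened pairs 2.504% on chromosome 2 to 3.51% on chromosome 11.

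In windows of 1 Mb, more peaks were lost than gained in 378 of the 379 windows, or 99.7%, and the exception was the last window of chromosome 11, with 3 control peaks, of which none was lost. Covered length was lower after salt 6 h in all 379 windows. With equal numbers of peaks, more were lost than gained in 239 of 379 windows, or 63.1%, so the count of windows depends on the list sizes. Among the 378 windows with at least 20 control peaks, the share lost ran from 9.43 to 29.2% with a median of 17.9%, and the difference in covered length from -31.4 to -8.29%.

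The windows with the highest share of lost peaks were on 4 chromosomes. They were chr12:24000001-25000000 with 87 of 298 control peaks lost (29.2%, interval 24.3 to 34.6%), chr5:1000001-2000000 with 26.9%, chr8:16000001-17000000 with 26.5%, chr8:17000001-18000000 with 26.3% and chr2:8000001-9000000 with 25.8%. The windows on chromosome 8 are neighbours, and the first of them held the strongest lost peak. Set beside the same control list, salt 2 h had lost 11.7%, 13.8%, 12.9%, 11.1% and 9.68% in these windows, and heat 3 h 19.5%, 17.0%, 16.8%, 20.2% and 20.2%. The shares of salt 2 h and heat 3 h over the whole genome are not given here. Whether these values are high for those lists can therefore not be read from them.

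The lowest shares of lost peaks were in chr4:27000001-28000000 with 30 of 318 (9.43%, 6.69 to 13.1%), chr9:17000001-18000000 with 10.53% and chr1:26000001-27000000 with 11.2%. Salt 2 h had lost 4.09%, 4.56% and 3.97% in these windows, and heat 3 h 13.8%, 10.9% and 11.6%, again without the whole-genome shares of those lists. The interval of the share lost lay above the 18.1% of the whole genome in 24 windows and below it in 20. These windows were ranked on their own values, so their extremes are a description.

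Gained peaks were more frequent where control peaks were few. The highest shares were in chr4:1000001-2000000 with 18 of 136 salt 6 h peaks gained (13.2%, 8.54 to 19.95%), chr4:2000001-3000000 with 12.5% and chr6:18000001-19000000 with 12.4%. Against the same control list, salt 2 h had gained 10.6%, 5.48% and 8.15% in these windows and heat 3 h 13.9%, 14.1% and 11.3%. The whole-genome gained shares of those lists are not given here, so whether these values are high for them cannot be read. They held 147, 155 and 137 control peaks, against a median of 276.5. In the 97 windows with 239 or fewer control peaks, 1113 of 16631 salt 6 h peaks were gained, or 6.69% (6.32 to 7.08%), against 997 of 27731, or 3.60% (3.38 to 3.82%), in the 102 windows with 297 or more. The share lost hardly differed between these windows, with 18.9% and 18.1%. Control peaks covered 15.5% of the first windows and 26.4% of the second, and the part of this cover in the gained share was not tested.

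Across the 378 windows, Spearman's rho of the number of control peaks was -0.52 with the share gained and -0.084 with the share lost. These are descriptions of windows that come from the same libraries and share their peak lists. The shares lost and gained of a window had a rho of 0.084 with each other, so the share lost in a window said little of the share gained there.

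**Figure D5:**
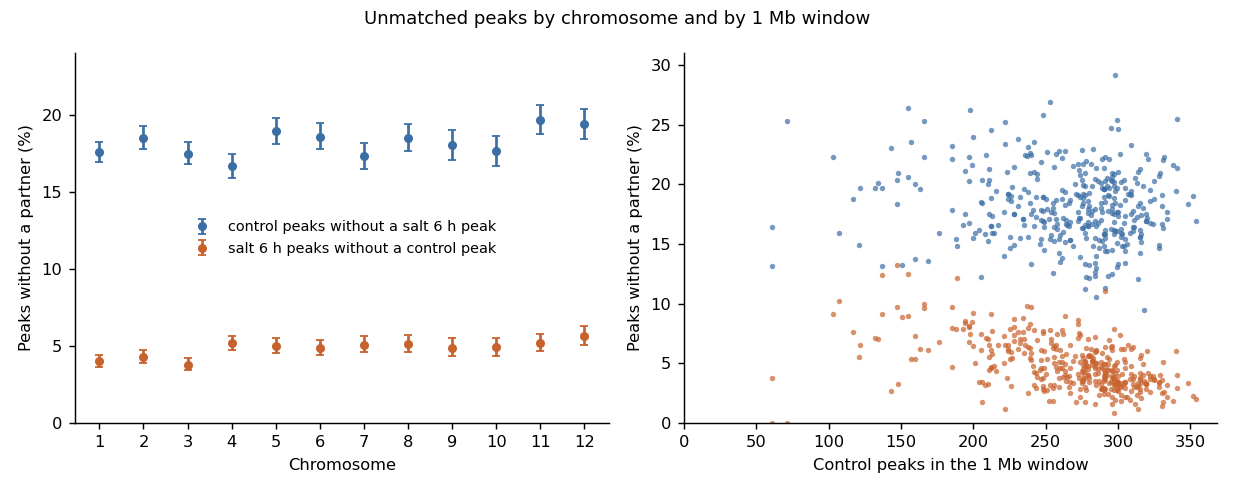
Share of peaks without a partner (percent) by chromosome, with 95% Wilson intervals (left), and by the number of control peaks in the 1 Mb window, with 1 point per window of at least 20 control peaks (right), for lost control peaks (blue) and gained salt 6 h peaks (orange). Lost shares lie between 16.7 and 19.7% on the chromosomes, and the gained shares decline from peak-poor to peak-rich windows.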

How the data were processed

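FAIRE-seq libraries of 14-day-old seedlings were sequenced by the authors, 2 replicates per condition, and the peaks of each condition were deposited as 1 list; the sources used here do not state whether replicates were pooled. Reads were aligned to IRGSP 1.0 with Bowtie2, filtered, and broad peaks were called with MACS2, per the submitters' processing notes and the study's methods; versions are not given in the sources used here. The deposited values are the start and end of each peak, its fold enrichment (a ratio), its −log10 p and its −log10 q. These are the authors' values from MACS2. Other columns and RNA-seq were not analysed here, and the gene table used here is for another assembly, so no gene is named.

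Peaks overlapping by at least 1 bp were matched. Widths were compared in 1:1 pairs with a ratio of 1.5, and peaks were placed in 1 Mb windows by midpoint, with shares ranked in windows of at least 20 peaks. Shares carry 95% Wilson intervals, which cover counting error only, and neighbouring peaks are not independent. With 1 list per condition there is no replicate check and no p-value was computed. Regions named are the 5 lost and 5 gained peaks of highest fold enrichment, the 3 pairs that lost and the 3 that gained most width, the 3 control peaks with most partners, the longest runs of lost peaks (3 by rule, with 1 more of equal count added), and the windows and chromosomes with the most extreme shares; pairs of most different rank were added later. Members and rules were chosen with earlier results of these data known. The alternatives were a −log10 q of at least 2, equal numbers of peaks, joined neighbours, other overlaps, other width ratios and other window sizes. The overlap functions recovered all 7 quantities of 4000 simulated control peaks, and bedtools 2.31.1 gave the same 18030 lost and 4136 gained peaks. Python 3.11.15, numpy 2.4.6, pandas 2.3.3, scipy 1.17.1 and matplotlib 3.10.9 were used.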

Additional observations from a re-analysis of the deposited data

How the results depend on the processing

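No paired analysis was possible because each condition has 1 peak list, in which the replicates are not told apart, and for the same reason no replicate could be left out. Of 41 alternative values, 30 stayed within the limit set for them, which was 1.5 times for counts. With equal numbers of peaks, gained peaks numbered 10951 and control peaks joined with another 1583, and 63.1% of the 1 Mb windows had more lost than gained peaks. That setting removes only weaker control peaks, which can then be neither partners nor lost. Among the 20000 peaks of highest fold enrichment, 321 control peaks were lost and 0 salt 6 h peaks were gained. Partners were sought in the full other list, and the control list was the longer. A width ratio of 5 to 4 gave 18004 narrowed and 4201 widened pairs, and a ratio of 2 gave 5328 and 933. With windows of 2 Mb, 100% had more lost than gained peaks. Joining gaps of 200 bp or less changed nothing, since the smallest gap in either list was 401 bp. The values of that setting are among the 30 but could not have moved. Joining gaps of 600 bp or less, which was chosen after seeing the data, gave 14206 lost and 3384 gained peaks. The median fold enrichment ratio was 1.247 with a −log10 q of at least 2, 1.251 with equal numbers and 1.26 at like widths, alternatives also added after seeing the data. No direction was reversed. Depth, the batch of each library and the spread between replicates cannot be read from the lists, so whether any region differed by more than replicates do is unknown.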
